A study of Homo sapiens with 18 samples.

Results

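A pair of control groups, both labelled as 786-O cells, was compared: the 3 libraries labelled sicontrol_for_siANKRD35 (called the ANKRD35 controls below) and the 3 labelled sicontrol_for_siMITD1 (the MITD1 controls). Genes were matched between the 2 deposited tables by a symbol that occurs once in each, which gave 29848 of the 58735 genes of the ANKRD35 table. Of these, 11181 had an FPKM of 1 or more in at least 3 of the 6 libraries and were compared. FPKM is the number of fragments per kilobase of gene, scaled to the size of the library. 786-O is an established line of clear cell renal carcinoma.

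The series holds 18 RNA-seq libraries in 6 groups of 3, from an experiment on the ubiquitin ligase RBCK1 and the genes ANKRD35, MITD1 and ANXA1, which its title places on an axis linked to the drug sunitinib. Both control groups were labelled 786-O, genotype control, treatment sicontrol, and the labels name no drug. Cells were grown in RPMI-1640 with serum. The 6 remaining libraries of the 2 tables, siANKRD35 and siMITD1, and the 3 shcontrol libraries of the RBCK1 experiment are given beside the controls where they bear on a value. The sequence of the control siRNA was not given in the sources used here, nor was whether both groups received the same one, nor whether the 3 libraries of a group came from separate cultures.

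Control libraries of a knockdown experiment carry an siRNA with no intended target, so they show the state of a line under transfection. Cultured carcinoma cells keep a genotype of losses and gains that marks the line, and on top of it their RNA follows medium, density and stress. NF-kB, a transcription factor held back by IkB proteins, drives chemokine and cytokine genes. p53 drives genes of growth arrest and DNA repair, and the SREBP factors drive genes of sterol and fatty acid synthesis when cell sterol is low.

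Depth recovered from the steps of the FPKM values was 17526827 to 19034974 reads per ANKRD35 control and 14124855 to 15432044 reads per MITD1 control. The tables were normalized separately, so no test was made between them and every difference below is a description of 3 libraries against 3. Differences are the mean log2(FPKM + 1) of the MITD1 controls minus that of the ANKRD35 controls, a scale that understates the change of low genes. The median over all 11181 genes was 0.17 and became 0.01 with equal total FPKM and −0.03 with median-ratio scaling, so the differences of gene lists are read against 0.17. In bulk RNA, fewer cells with a transcript and less of it per cell cannot be told apart.

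Before the comparison itself, the labels were checked against genes that mark the line. The renal lineage factor PAX8 measured 48.3, 46.2 and 43.3 FPKM in the ANKRD35 controls and 35.4, 34.4 and 35.3 FPKM in the MITD1 controls, and EPAS1, which encodes HIF-2alpha, measured 36.5 to 39.4 and 38.3 to 39.1 FPKM. Both groups held RNA of these 2 markers, and EPAS1 overlapped between them. CDKN2A, whose loss is expected of the line, separated the groups and is given with chromosome 9 below. Over the renal tubule list as a whole the groups differed (median 1.31). Of 9 members compared, 5 were 2-fold higher in the MITD1 controls and 1 in the ANKRD35 controls. Over all genes the shares were 14.8% and 12.4%. WT1, ITGB8 and CDH6 of the 5 passed the filter only through the MITD1 controls, so their groups could not overlap. WT1, a factor of kidney development, was listed at 0 in the 3 ANKRD35 controls and measured 4.97, 4.85 and 4.43 FPKM in the MITD1 controls. ITGB8, an integrin subunit, measured 0.267 to 0.271 against 4.03 to 4.63 FPKM. CDH6, a cadherin of the renal tubule, was listed at 0 in the 3 ANKRD35 controls and measured 28.3, 28.7 and 28.9 FPKM in the MITD1 controls and 13.8, 13.3 and 13.5 FPKM in shcontrol. EGLN3, a prolyl hydroxylase gene induced by HIF, measured 0.0278 to 0.0528 FPKM in the ANKRD35 controls and 6.83 to 7.40 FPKM in the MITD1 controls. EPCAM, an epithelial adhesion molecule, went the other way, with 19.2 to 21.5 FPKM against 0.795 to 1.03 FPKM.

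The short arm of chromosome 9 separated the groups gene by gene. From 20341665 to 21937651 of chromosome 9 (GRCh38, as the ANKRD35 table lists it), the 5 neighbouring genes MLLT3, FOCAD, KLHL9, MIR31HG and MTAP were listed at 0 in each of the 3 ANKRD35 controls and each of the 3 siANKRD35 libraries. MLLT3, a gene of the super elongation complex, measured 7.836, 7.156 and 7.997 FPKM in the MITD1 controls. MTAP, an enzyme of methionine salvage, measured 4.76, 4.42 and 4.80 FPKM there, and shcontrol held 4.70, 4.36 and 4.18 FPKM. Immediately beyond MTAP the order turned round. CDKN2B, the cell cycle inhibitor p15 at 22002903 to 22009363, measured 6.96, 7.10 and 6.45 FPKM in the ANKRD35 controls and was listed at 0 in the 3 MITD1 controls, the 3 siMITD1 libraries and the 3 shcontrol libraries. CDKN2A at 21967753 to 21995301, whose loss is expected of 786-O, measured 0.463, 0.284 and 0.372 FPKM against 0 in the same libraries. The siANKRD35 libraries held both RNAs too, at 2.07 to 2.46 FPKM for CDKN2B and 0.207 to 0.387 FPKM for CDKN2A. The flanking genes RPS6 (383 to 411 against 407 to 425 FPKM) and DMRTA1 (1.51 to 1.70 against 6.55 to 7.23 FPKM) were present in both groups. Both groups carry the same cell label, and whether they hold the same cells was not tested, so every difference below may include one between the cells themselves.

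**Figure D1:**
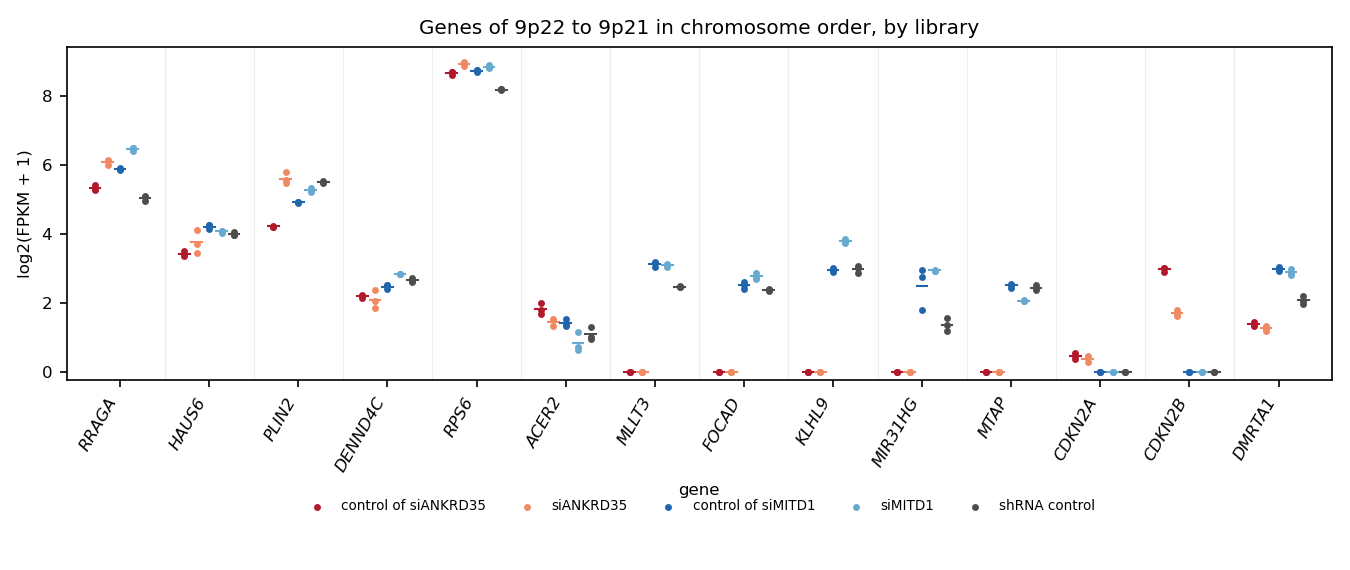
Genes of the short arm of chromosome 9 in chromosome order (horizontal axis) and their log2(FPKM + 1) in each library (vertical axis); points are libraries, short lines the mean of 3, colours the groups. MLLT3 to MTAP lie at 0 in the 6 libraries of the ANKRD35 table, CDKN2A and CDKN2B at 0 in the 9 others drawn, and the genes on either side are present in all 15.

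Genes listed at 0 in 1 group and present in the other were counted across the genome. There were 104 genes at 0 in the 3 ANKRD35 controls with a mean of 1 FPKM or more in the MITD1 controls, and 90 of them were also at 0 in the siANKRD35 libraries. In the other direction there were 217, of which 169 were at 0 in the siMITD1 libraries too. Runs of at least 3 such neighbours in the ANKRD35 controls, besides the one on chromosome 9, were zinc finger genes of chromosome 19 (3 runs, the longest of 6 genes from ZNF600 to ZNF816), MAGEA3, CSAG1, MAGEA12 and MAGEA6 on chromosome X, and 3 overlapping UGT1A genes of chromosome 2. In the MITD1 controls there were 6 runs: RDM1, ZNHIT3, MYO19 and PIGW on chromosome 17, MNX1 with 2 antisense genes on chromosome 7, 3 genes each on chromosomes 22 and 6, and 2 runs of 4 on chromosome X from PLCXD1 to CSF2RA and from ASMTL to ZBED1. In shcontrol, 68 of the 104 genes and 75 of the 217 reached 1 FPKM. Of the runs at 0 in the MITD1 controls, 3 of 4 genes on chromosome 17, 3 of 3 on chromosome 6 and 4 of 4 from ASMTL to ZBED1 did so. MYO19, PIGW, LSM2, GTPBP6, AKAP17A and ZBED1 of these runs are among the genes that the MITD1 table alone lists near 0, described below. The figures describe RNA as listed, and copy number was not measured in the files.

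Between the control groups the libraries correlated at r = 0.749 to 0.751 over the 11181 genes, as a description across genes that share library and gene length. Within either control group r was 0.996. Between a control group and the knockdown of its own table r was 0.967 to 0.974 for ANKRD35 and 0.973 to 0.975 for MITD1. By r, the listed values of the 2 control groups were thus farther apart than those of either group and its own knockdown. The control groups stand in separate tables and each knockdown in the table of its control, so table and cells cannot be told apart here. The shcontrol libraries correlated at 0.882 to 0.885 with the MITD1 controls and at 0.807 to 0.81 with the ANKRD35 controls. The median SD of a gene over 3 libraries was 0.06 in the ANKRD35 controls and 0.0566 in the MITD1 controls on the log2 scale, against a median absolute difference of 0.581 between the groups.

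The 3 values of one group lay wholly above or below the 3 of the other for 9829 of 11181 genes (87.9%), 52.1% higher in the MITD1 controls and 35.8% higher in the ANKRD35 controls. With separately normalized tables and replicates this tight, a lack of overlap alone says little about a single gene. A difference of at least 2-fold was therefore also asked for, and 1657 genes (14.8%) were that much higher in the MITD1 controls and 1387 (12.4%) in the ANKRD35 controls, 27.2% together. The first made up 54.4% of the 2-fold genes as deposited, 45.1% with equal total FPKM, and 41.5% with median-ratio scaling. Larger differences lay more often on the ANKRD35 side: 564 genes were at least 4-fold higher in the ANKRD35 controls and 345 in the MITD1 controls, and 44 and 17 were at least 32-fold higher. Without 262 genes that the MITD1 table alone lists 10-fold apart, which are described below, the 4-fold counts were 372 and 333 and the 32-fold counts 23 and 14. Of the 2-fold genes, 772 had passed the filter only through the ANKRD35 controls and 438 only through the MITD1 controls. The groups of such genes could not overlap. Among the 9125 genes at 1 FPKM or more in all 6 libraries, 534 were 2-fold higher in the ANKRD35 controls and 1165 in the MITD1 controls.

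The siANKRD35 and siMITD1 libraries, which share no library with the controls, were compared in the same way. There, 15.5% of the genes were 2-fold higher in siMITD1 and 14.1% 2-fold higher in siANKRD35. Of the 1657 genes higher in the MITD1 controls, 1102 (66.5%) were also 2-fold higher in siMITD1, and 1 was 2-fold higher in siANKRD35. Of the 1387 higher in the ANKRD35 controls, 1144 (82.5%) were 2-fold higher in siANKRD35 and 0 went the other way. These libraries come from the same 2 tables, so a difference between the tables recurs in them by construction. Without the 262 genes of the MITD1 table alone, the shares were 66.2% and 79.4%. Of the 3044 genes that differed 2-fold between the controls, 2104 (69.1%) had a shcontrol mean nearer to the MITD1 controls and 940 nearer to the ANKRD35 controls.

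**Figure D2:**
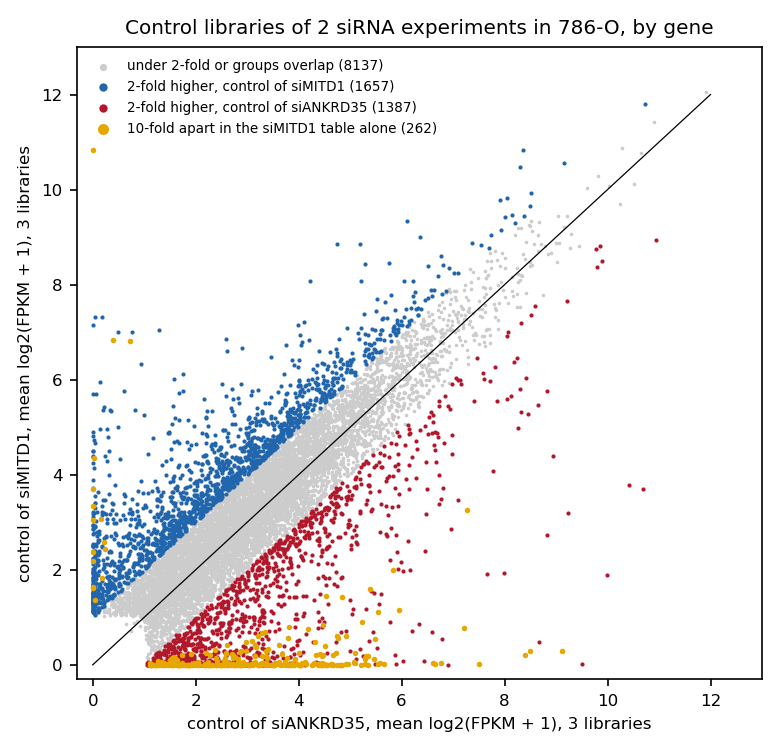
Each of the 11181 genes by its mean log2(FPKM + 1) in the ANKRD35 controls (horizontal) and in the MITD1 controls (vertical), 3 libraries each; the line marks equal values. The 1657 genes in blue and the 1387 in red differ 2-fold without overlap, and yellow marks 262 genes that stand 10-fold apart in the MITD1 table alone, most of them along the bottom edge.

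A set of genes stood apart in both groups of the MITD1 table. Of 5643 genes at 5 FPKM or more in both the ANKRD35 controls and shcontrol, 123 were under 0.5 FPKM in the MITD1 controls, and 118 of these were so in siMITD1 as well. They include genes that every cell uses. The ribosomal protein gene RPS18 measured 564, 534 and 571 FPKM in the ANKRD35 controls, 439, 400 and 393 FPKM in shcontrol, and 0.335, 0.136 and 0.185 FPKM in the MITD1 controls. TUBB, a beta tubulin, measured 354 to 362 FPKM in the ANKRD35 controls, 533 to 552 FPKM in shcontrol and 0.168 to 0.314 FPKM in the MITD1 controls. PSMB3, a proteasome subunit, and SLC25A6, an ADP/ATP carrier, were near 0 in the same libraries. Of the 123, 42 lay between 28 and 34 Mb of chromosome 6, the region of the major histocompatibility complex, where 62 genes reached 5 FPKM in both other groups. On the rest of chromosome 6 it was 2 of 226.

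In the other direction 10 genes were at 5 FPKM or more in the MITD1 controls and under 0.5 FPKM in both the ANKRD35 controls and shcontrol. LUZP6, which shares a transcript with MTPN, measured 1808 to 1839 FPKM in the MITD1 controls and was listed at 0 in the other 2 groups. CDC42, a small GTPase of the cytoskeleton, measured 108, 117 and 112 FPKM against 0.216, 0.341 and 0.386 FPKM. All told, 246 genes were at least 10-fold lower and 16 at least 10-fold higher in both groups of the MITD1 table than in the 4 groups of the other tables. Without these, r between the controls was 0.791 to 0.792, and 1141 and 1641 genes were 2-fold higher in the ANKRD35 and MITD1 controls. With shcontrol, r was 0.929 to 0.931 for the MITD1 controls and stayed at 0.807 to 0.81 for the ANKRD35 controls. The genes left out were chosen for standing apart in the MITD1 table, so both values of r that involve the MITD1 controls rise by construction. The ANKRD35 table, by the same measure, stood alone for 238 genes that were lower and 342 that were higher, and no gene was left out for that.

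The target genes of the experiment were read next. ANKRD35, on chromosome 1 at 145866560 to 145885866, had the largest difference of the 11181 genes on the ANKRD35 side: 753, 687 and 742 FPKM in the ANKRD35 controls, and 0, 0.0192 and 0 FPKM in the MITD1 controls. It was listed at 0 in the 3 shcontrol libraries, and measured 0, 0 and 0.0332 FPKM in the siANKRD35 libraries. Of the 3 control groups, the ANKRD35 controls alone held more than a trace of the RNA. The knockdown columns of their table are named ShRNA where the labels say siRNA, and the source of the ANKRD35 RNA was not tested. MITD1, which acts with ESCRT-III in cytokinesis, measured 10.4, 11.4 and 10.4 FPKM against 7.16, 7.42 and 7.83 FPKM (difference −0.47). RBCK1 measured 68.2 to 73.1 against 64.7 to 66.5 FPKM, with 462 to 492 FPKM in shcontrol. ANXA1, a phospholipid-binding protein, measured 139, 149 and 146 against 137, 129 and 138 FPKM, a difference of −0.10.

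Chemokine and cytokine genes were higher in the ANKRD35 controls. Of 26 NF-kB targets compared, 18 were 2-fold higher in the ANKRD35 controls and 3 in the MITD1 controls. Their median difference was −1.71 against 0.17 over all genes. Over all genes, 12.4% were 2-fold higher in the ANKRD35 controls and 14.8% in the MITD1 controls. Every list count below is read against these shares. The neutrophil chemokine CXCL8 measured 1325, 1379 and 1391 FPKM in the ANKRD35 controls and 12.6, 12.8 and 13.1 FPKM in the MITD1 controls, with 65.06 to 67.01 FPKM in shcontrol. CXCL1 measured 1632, 1617 and 1689 FPKM against 11.9, 11.4 and 12.9 FPKM. CXCL2 measured 1032, 1013 and 1013 FPKM against 2.82, 2.67 and 2.67 FPKM. These genes were among the most abundant RNAs of the ANKRD35 controls, CXCL1 ranking among the 5 highest by mean FPKM, and were low in both other control groups.

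Stretches before the start sites of the chemokine genes and IL6 are shown because they are among the members with the widest differences and hold a kB-like motif. CSF2, which differed more than CXCL3, has no match in its entry and is not shown. They cover the 100 bases before each start, on the gene's strand, from RefSeq on GRCh38.p14, and capitals mark each match to that motif, GGNNTTTCC, on either strand.
CXCL1 (chr4:73869293-73869392, plus strand): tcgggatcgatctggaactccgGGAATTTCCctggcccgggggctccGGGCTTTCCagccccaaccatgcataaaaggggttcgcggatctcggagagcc
CXCL2 (chr4:74099196-74099295, minus strand): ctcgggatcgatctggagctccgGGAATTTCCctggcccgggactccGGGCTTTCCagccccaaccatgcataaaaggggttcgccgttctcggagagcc
CXCL3 (chr4:74038690-74038789, minus strand): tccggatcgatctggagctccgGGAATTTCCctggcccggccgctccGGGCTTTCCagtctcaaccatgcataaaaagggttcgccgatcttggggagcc
CXCL8 (chr4:73740469-73740568, plus strand): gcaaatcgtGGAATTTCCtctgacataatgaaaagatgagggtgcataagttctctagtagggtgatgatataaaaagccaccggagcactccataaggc
IL6 (chr7:22727100-22727199, plus strand): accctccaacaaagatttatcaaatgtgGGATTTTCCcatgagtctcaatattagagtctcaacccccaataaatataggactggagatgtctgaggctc

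CXCL1, CXCL2 and CXCL3 hold 2 matches each and CXCL8 and IL6 hold 1. In the 250 bases before the start site, 17 of the 22 compared NF-kB targets with an entry hold the motif, as do 1828 of 27305 genes of the table (6.69%). The list was drawn up as NF-kB targets, so this share describes the list. VCAM1 and ICAM1, which were higher in the MITD1 controls, hold the motif as well.

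The cytokines IL6, CSF2 and CXCL3 followed the same pattern. IL6 measured 619, 617 and 572 FPKM in the ANKRD35 controls against 7.64, 8.05 and 8.91 FPKM, and 51.2 to 54.5 FPKM in shcontrol. CSF2, the granulocyte-macrophage growth factor, measured 194.6 to 205.8 against 1.79 to 3.58 FPKM. CXCL3 measured 68.6 to 75.2 against 0.32 to 0.888 FPKM. The pattern of IL6 held in the knockdown libraries, where it measured 582 to 604 FPKM in siANKRD35 and 9.65 to 11.9 FPKM in siMITD1.

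Feedback inhibitors of the pathway were higher on the same side by less. NFKBIA, the inhibitor IkB-alpha, had a mean of 86.8 against 31.7 FPKM, TNFAIP3, the deubiquitinase A20, 31.6 against 5.45 FPKM, and BIRC3, a ubiquitin ligase of the TNF receptor complex, 38.5 against 9.48 FPKM. The adhesion molecules of the list went the other way. VCAM1 measured 2.17 to 2.52 FPKM in the ANKRD35 controls and 52.0 to 54.7 FPKM in the MITD1 controls, and ICAM1 3.28 to 4.34 against 26.3 to 27.9 FPKM. The chemokine CXCL5, a neighbour of CXCL1 on chromosome 4 that is not on the list, measured 0.306 to 0.592 against 18.3 to 19.8 FPKM and was 45.0 to 46.5 FPKM in shcontrol.

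**Figure D3:**
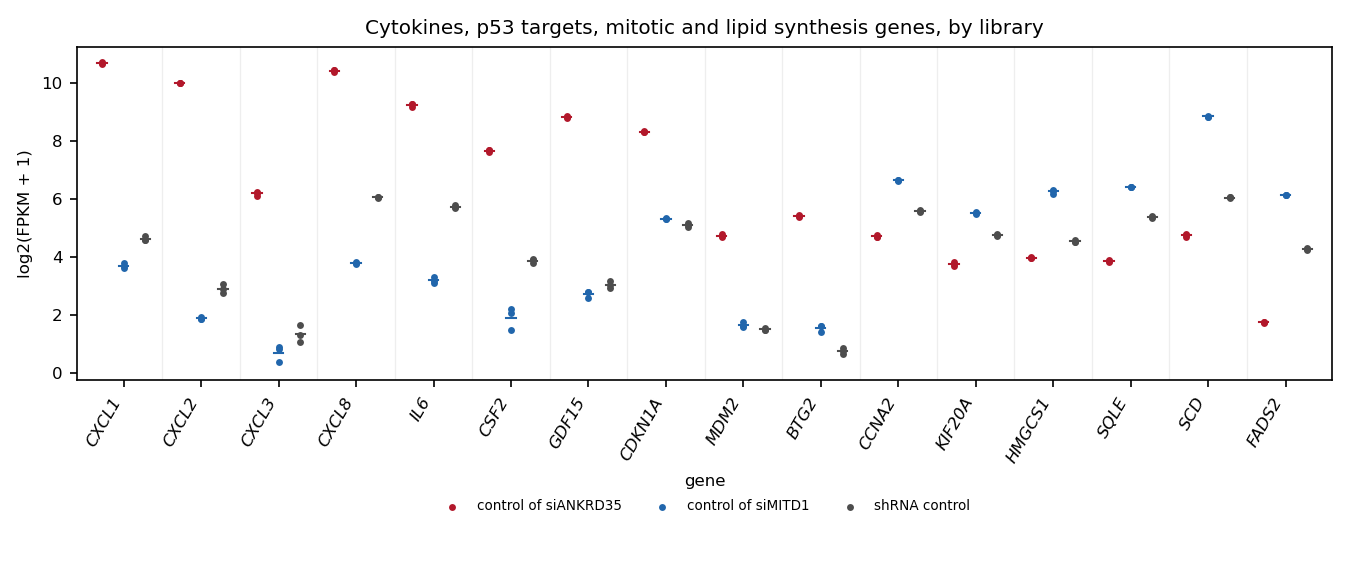
Log2(FPKM + 1) of cytokine, p53 target, mitotic and lipid synthesis genes (horizontal axis) in each library of the 3 control groups; points are libraries and short lines the mean of 3. The chemokine, cytokine and p53 target genes from CXCL1 to BTG2 are highest in the ANKRD35 controls, and the genes from CCNA2 to FADS2 are highest in the MITD1 controls.

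Targets of p53 were higher in the ANKRD35 controls for 19 of 25 genes by 2-fold, and 0 were 2-fold higher in the MITD1 controls (median −1.66). CDKN1A, the cell cycle inhibitor p21, measured 317, 322 and 318 FPKM against 38.9, 39.5 and 39.1 FPKM, with 31.98 to 34.78 FPKM in shcontrol. MDM2, the ubiquitin ligase of p53, measured 25.1 to 26.6 against 2.01 to 2.40 FPKM. GDF15, a stress hormone that ATF4 also drives, measured 439 to 463 against 5.07 to 5.90 FPKM. BTG2, an antiproliferative gene, measured 40.4 to 42.4 against 1.66 to 2.08 FPKM. The groups did not overlap in any of these 4 genes. CCNG1 and POLH were slightly higher in the MITD1 controls, at 57.6 against 54.1 FPKM and 13.7 against 10.8 FPKM.

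Stress and signalling genes lay mostly on the same side. Of 31 ATF4 and CHOP targets, 10 were 2-fold higher in the ANKRD35 controls and 3 in the MITD1 controls (median −0.63). DDIT3, which encodes CHOP, measured 122 to 127 against 5.71 to 7.08 FPKM, and ATF3 measured 251 to 255 against 2.74 to 2.92 FPKM. PHGDH, the first enzyme of serine synthesis, measured 18.7 to 20.1 FPKM in the ANKRD35 controls and 0.00765 to 0.0687 FPKM in the MITD1 controls, and was as low in shcontrol. DDIT4 and VEGFA of this list were higher in the MITD1 controls. Of 32 MAPK feedback and immediate early genes, 16 were 2-fold higher in the ANKRD35 controls and 3 in the MITD1 controls (median −0.98). The phosphatase gene DUSP1 measured 274 to 290 against 47.7 to 50.6 FPKM and MYC 115 to 123 against 40.9 to 44.3 FPKM. ERRFI1, a feedback inhibitor of the EGF receptor, went the other way with a mean of 39.7 against 99.0 FPKM.

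Metallothioneins, which bind zinc and copper, were 2-fold higher in the ANKRD35 controls for 5 of the 8 list members compared. In the MITD1 controls 0 were 2-fold higher (median −1.22). MT2A measured 1937, 1842 and 2158 FPKM against 507, 450 and 509 FPKM. MT1M measured 123, 106 and 126 FPKM and was listed at 0 in the MITD1 controls and in shcontrol. MT1L, outside the list, went the other way, with 36.1 to 45.3 FPKM in the MITD1 controls and at most 0.541 FPKM in the ANKRD35 controls. Reads of these closely related genes can be split between copies, so single members are uncertain.

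Genes of cell division were higher in the MITD1 controls. Of 39 genes of G2 and mitosis, 38 had groups that did not overlap and were higher there, 19 by 2-fold. Over all genes these shares were 52.1% and 14.8%. In the ANKRD35 controls 0 of the 39 were 2-fold higher (median 1, and 0.78 at the lowest of the scalings). CCNA2, cyclin A, measured 24.98, 24.79 and 26.38 FPKM against 99.0, 98.6 and 99.2 FPKM. KIF20A, a kinesin of cytokinesis, measured 12.04 to 13.25 against 43.6 to 46.1 FPKM. AURKB and BIRC5 of the chromosomal passenger complex were close, at 40.1 against 43.0 and 41.8 against 45.7 FPKM, and AURKB was the member whose groups overlapped. S phase genes were higher by less (median 0.53). Of 42, 5 were 2-fold higher there, a share below the 14.8% of all genes, and 0 in the ANKRD35 controls. The CCAAT box ATTGG, on either strand, stood in the 250 bases before the start of 27 of 33 G2 and mitosis genes with an entry, and in 37% of the 27305 genes of the table.

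Genes of sterol and fatty acid synthesis were higher in the MITD1 controls. Of 25 genes of cholesterol synthesis and uptake, 17 were 2-fold higher there and 0 in the ANKRD35 controls (median 1.44). HMGCS1, which makes the precursor of mevalonate, measured 14.8, 14.5 and 15.2 FPKM against 79.2, 71.8 and 77.4 FPKM, with 21.9 to 23.1 FPKM in shcontrol. SQLE, squalene epoxidase, measured 13.2 to 14.1 against 84.5 to 84.8 FPKM, and DHCR7, the last step to cholesterol, 15.3 to 15.9 against 104 to 106 FPKM. The shcontrol libraries lay between the groups for SQLE, at 40.2 to 41.5 FPKM. SREBF2, the factor that drives this pathway, had a mean of 17.2 against 53.9 FPKM, and TM7SF2, a sterol reductase, was higher in the ANKRD35 controls at 2.50 against 1.06 FPKM.

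Among 24 genes of fatty acid synthesis and lipid droplets, 9 were 2-fold higher in the MITD1 controls and 2 in the ANKRD35 controls (median 0.90). SCD, the delta-9 desaturase, measured 25.9, 26.8 and 25.2 FPKM against 457, 463 and 456 FPKM, and FADS2, a delta-6 desaturase, 2.29 to 2.44 against 68.8 to 69.2 FPKM. CPT1A, which brings fatty acids into mitochondria for oxidation, was higher in the ANKRD35 controls, with a mean of 7.19 against 1.02 FPKM. ACACA, acetyl-CoA carboxylase, was too, at 4.99 against 0.657 FPKM, and stood at 7.30 FPKM in shcontrol. For ACACA the MITD1 controls thus lay below both other control groups, as for the genes that the MITD1 table alone lists low. ACACA was not counted among those genes, and whether their listing bears on its difference was not tested.

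Of 18 glycolysis genes, 11 were 2-fold higher in the MITD1 controls and 0 in the ANKRD35 controls (median 1.06). SLC16A3, the lactate exporter MCT4, measured 0.853 to 0.951 against 77.1 to 83.2 FPKM. LDHA measured 161, 163 and 167 FPKM against 468, 454 and 479 FPKM, and the glucose transporter SLC2A1 37.2 to 39.5 against 344 to 349 FPKM. GAPDH, at 1583 to 1618 against 1721 to 1773 FPKM, differed by 0.11, less than the median of all genes. PFKM, a phosphofructokinase, was higher in the ANKRD35 controls, at 19.4 against 9.76 FPKM.

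HIF targets, which 786-O drives through HIF-2alpha for lack of VHL, were split. Of 28 compared, 6 were 2-fold higher in the MITD1 controls and 5 in the ANKRD35 controls (median 0.69). VEGFA measured 3.87 to 4.10 against 39.1 to 39.9 FPKM, and CA12, a carbonic anhydrase, 3.25 to 3.42 against 27.5 to 29.5 FPKM. LOX, a collagen crosslinking enzyme, measured 42.2 to 42.6 FPKM in the ANKRD35 controls and 0.489 to 0.774 FPKM in the MITD1 controls. ANGPTL4, an inhibitor of lipoprotein lipase, measured 57.0 to 59.1 against 5.41 to 5.70 FPKM, and in shcontrol it stood at 61.3 to 64.6 FPKM, near the ANKRD35 controls. CA9 and NDUFA4L2, defining HIF targets of clear cell carcinoma, did not reach 1 FPKM in 3 libraries and were not compared.

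**Figure D4:**
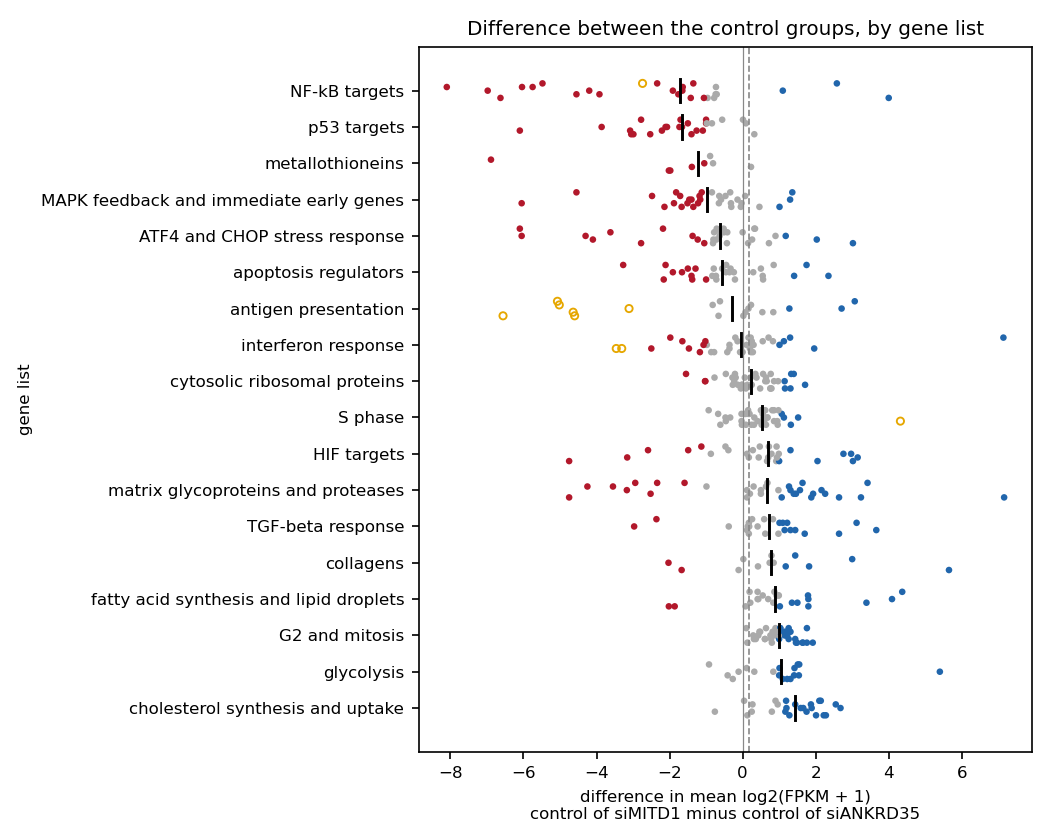
Difference in mean log2(FPKM + 1), MITD1 minus ANKRD35 controls (horizontal axis), for each compared member of 18 gene lists (vertical axis). Points are genes, coloured from a 2-fold difference, black ticks the list medians, the dashed line the median of all 11181 genes, and open yellow circles genes that the MITD1 table alone lists 10-fold apart; NF-kB targets have the lowest median, −1.71, and cholesterol genes the highest, 1.44.

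Matrix and TGF-beta response genes were higher in the MITD1 controls on balance. Of 24 TGF-beta response genes, 10 were 2-fold higher there and 2 in the ANKRD35 controls (median 0.72), and of 33 matrix glycoprotein and protease genes 15 and 8 (median 0.68). FN1, fibronectin, measured 66.7 to 68.3 against 628 to 655 FPKM, and TGFBI, a matrix protein induced by TGF-beta, 35.2 to 36.0 against 454 to 465 FPKM. MMP2, a gelatinase, was listed at 0 in the 3 ANKRD35 controls and measured 143, 142 and 140 FPKM in the MITD1 controls and 67.9 to 73.5 FPKM in shcontrol. PLAU, the urokinase-type plasminogen activator, went the other way, with 394 to 405 against 41.1 to 44.8 FPKM. COL6A3, a chain of collagen VI, measured 0.0255 to 0.0495 against 50.5 to 52.2 FPKM, and 130 to 132 FPKM in shcontrol.

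Epithelial and mesenchymal genes had no single direction. The keratin KRT18 measured 354, 331 and 341 FPKM in the ANKRD35 controls and 65.7, 63.4 and 65.0 FPKM in the MITD1 controls, and the tight junction gene CLDN1 301 to 309 against 29.2 to 31.3 FPKM. Vimentin, VIM, measured 202 to 213 against 423 to 444 FPKM, and the repressor SNAI2 0.845 to 1.33 against 19.5 to 21.3 FPKM. Of 21 list members compared, 7 were 2-fold higher in the MITD1 controls and 8 in the ANKRD35 controls (median −0.40). Among those higher in the ANKRD35 controls, TJP1, OCLN and KRT34 are low in the MITD1 table alone. CLDN4, an epithelial claudin, was higher in the MITD1 controls at 2.92 against 0.203 FPKM. CDH1 was not compared.

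Interferon response and antigen presentation genes had no common direction. Of 36 interferon response genes, 5 were 2-fold higher in the MITD1 controls and 9 in the ANKRD35 controls, with a median of −0.04. DDX58 and IRF7 of the 9 are genes that the MITD1 table alone lists near 0, and the median was 0.05 without them. BST2, tetherin, measured 157 to 159 FPKM in the MITD1 controls and at most 0.366 FPKM in the ANKRD35 controls. ISG15 was close, at 90.6 against 78.5 FPKM, and its mean in shcontrol was 785.8 FPKM. Of 18 antigen presentation genes, 6 were 2-fold higher in the ANKRD35 controls and 3 in the MITD1 controls. All 6 (HLA-E, PSMB8, PSMB9, TAP1, TAP2 and TAPBP) are genes that the MITD1 table alone lists near 0. Without them the median turned from −0.30 to 0.20. B2M, the light chain of class I molecules, measured 115 to 118 against 70.8 to 74.5 FPKM.

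Outside the lists, the largest differences allowed by the naming rule were of several kinds. UCHL1, a deubiquitinase of neurons and tumours, measured at most 0.073 FPKM in the ANKRD35 controls, 158 to 160 FPKM in the MITD1 controls and 130 to 150 FPKM in shcontrol. G0S2, an inhibitor of triglyceride lipase, measured 0.257 to 1.09 against 117 to 137 FPKM, and TNFSF10, the death ligand TRAIL, 1.35 to 1.53 against 125.3 to 136.2 FPKM. On the ANKRD35 side, PADI3, a peptidylarginine deiminase, measured 401 to 410 FPKM and at most 0.567 FPKM in the MITD1 controls and 0.352 FPKM in shcontrol. CAVIN2, a caveola coat protein, measured 84.8 to 86.9 FPKM against at most 0.0655 FPKM. The knockdown libraries of the same table kept each of these 5 genes on its side. PADI3 measured 377 to 460 FPKM in siANKRD35, and UCHL1 148 to 153 FPKM in siMITD1. G0S2 was lower in siMITD1 than in its controls, at 54.5 to 66.2 FPKM.

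Of 45 markers of other cell types, 9 passed the filter and were compared. All 9 differed at least 2-fold, in either direction, where the share over all genes was 27.2%. COL6A3, THY1, LUM, LAPTM5, GATA3 and LHX2 passed the filter only through 1 group. Their groups could not overlap, so the count of 9 is not comparable with that share. Of 11 fibroblast markers 4 were compared, COL6A3 among them, and the summed level of the list was 35 to 38 FPKM in the ANKRD35 controls and 57.3 to 59.3 FPKM in the MITD1 controls. THY1, a fibroblast and progenitor surface protein, made up most of the first, with 34.1 to 36.9 FPKM against 0.178 to 0.294 FPKM. The 13 blood cell markers summed to 1.19 to 1.59 and 4.56 to 5.13 FPKM, with 7 at 0 in all 6 libraries. Endothelial markers summed to 20.7 to 27.5 and 10.4 to 10.7 FPKM, nearly all of it EGFL7. Markers of an embryonic kidney line summed to 6.57 to 7.11 and 61.1 to 62.2 FPKM, of which NEFL, a neurofilament, made up 4.30 to 5.06 and 59.1 to 59.4 FPKM, with 5 of 10 at 0 in all 6 libraries. Their part in the differences was not tested.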

How the data were processed

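The deposited FPKM tables were used as the authors deposited them; per the labels' protocols, total RNA was made into libraries with a directional kit. No source used here names the aligner, the counter or the scaling. The submitters' processing notes name mm10, a mouse build, but 58735 of 58735 gene positions of the ANKRD35 table equal GENCODE 29 on human GRCh38. The MITD1 table lists symbols only. Its gene lengths, implied by the steps of its values, agreed within 1% for 10399 of 11181 compared genes (93.0%), differed for 627 and were unknown for 155. It holds 0 genes of the mitochondrial chromosome. Of the ANKRD35 table, 1065 genes at 1 FPKM in its 3 controls had no row of that symbol in the MITD1 table, 342 of them protein coding, so the histone and mitochondrially encoded lists could not be compared. The ANKRD35 table also holds 6 value columns of no sample, not used.

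Values were set on log2(FPKM + 1) in Python 3.11.15 (pandas 2.3.3, numpy 2.4.6). A gene was called where the groups of 3 did not overlap and their means differed at least 2-fold. The rule was tested on simulated data. Named were the 4 genes of the axis, the 15 largest differences each way among called genes (mean of 5 FPKM, official symbol, implied length within 5%), 3 members per list, and the 5 most variable and 5 most abundant genes per group; other members, and the genes of chromosome 9, were chosen after their values were seen. Genes of the Y chromosome and XIST were left out of the naming by difference and by spread. They stayed in the counts where they passed the filter. The genes, lists and comparison were chosen with earlier results of these data known. Alternatives were scaling, pseudocount, filter, gene length and each library left out.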

Additional observations from a re-analysis of the deposited data

How the results depend on the processing

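No paired analysis was possible because the comparison between the control groups comes from no test and the replicate numbers of separate experiments pair nothing. Left out 1 library at a time, the counts of 2-fold genes ran from 1383 to 1391 (ANKRD35 side) and from 1652 to 1680 (MITD1 side). The count on the ANKRD35 side fell to 838 with a filter of 5 FPKM in 3 libraries and to 534 among genes at 1 FPKM in all 6 libraries, an alternative chosen after seeing the data. The latter filter leaves out the 932 genes that had passed only through the ANKRD35 controls, 772 of which were 2-fold higher there. The count of genes that also differed between the knockdown libraries, 2246, became 1488 and 1078 under the same filters. Spearman's rho of the difference with gene length was 0.024, 0.003 with the 5 FPKM filter and 0.048 after quantile normalization. The median SD within a group was 0.058 and became 0.070 with a pseudocount of 0.1.

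Some directions turned with the setting. ACTB turned to −0.09 with quantile normalization, and FTL to −0.06 (equal totals), −0.03 (length and GC trend removed) and −0.11 (median-ratio scaling). The ESCRT-III list turned to −0.05 (5 FPKM filter, and genes of the same implied length), −0.09 (equal totals), −0.15 (median-ratio) and −0.11 (quantile). Heat shock chaperones turned to −0.03, −0.09 and −0.05, and the 786-O markers to −0.03, −0.08 and −0.11, under those 3 scalings. The NRF2 list turned to 0.02 without a filter and endoplasmic reticulum chaperones to 0.02 among genes at 1 FPKM in all 6 libraries. Antigen presentation turned to 0.16 there, to 0.20 without genes of 1 table alone and to 0.08 with genes of the same implied length. The cause was not tested. A further 6 of the 38 list medians, between −0.04 and 0.08 as reported, and 1 of the 142 named genes (MIR429) also changed sign under at least 1 setting, the lists to values between −0.19 and 0.13 and MIR429 to between −0.31 and −0.01. Depth limits genes under about 1 FPKM.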

Other observations

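The difference between the control groups was uneven across chromosomes. Against a median of 0.17 over all 11181 genes, the 360 compared genes of chromosome X had a median of 0.64, the 271 of chromosome 22 one of 0.53 and the 403 of chromosome 8 one of 0.47. The 616 genes of chromosome 12 had a median of −0.49, the 190 of chromosome 13 one of −0.38 and the 681 of chromosome 17 one of −0.23. Leaving out the genes that the MITD1 table alone lists apart moved chromosome 6 from 0.11 to 0.25 and left chromosome 12 at −0.49. The medians are descriptions over genes of 2 separately normalized tables.

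Within a group, few genes varied. The SD over 3 libraries was above 0.5 on the log2 scale for 58 genes in the ANKRD35 controls and 66 in the MITD1 controls. The widest in the ANKRD35 controls were short or repeated genes, such as MIR3972, a microRNA gene, at 20.5, 7.06 and 10.2 FPKM. In the MITD1 controls they included 2 longer genes. RNH1, the ribonuclease inhibitor, measured 1.38, 16.1 and 3.01 FPKM and PUF60, a splicing factor, 3.04, 26.7 and 6.47 FPKM, both highest in the second library. In the ANKRD35 controls RNH1 measured 21.4 to 23.3 FPKM and PUF60 24.8 to 26.0 FPKM. In siMITD1 RNH1 measured 1.47, 6.57 and 9.10 FPKM and PUF60 2.91, 5.19 and 3.11 FPKM. The shcontrol libraries held 28.6 to 30.8 and 54.3 to 58.4 FPKM. Whether the genes that the MITD1 table lists near 0 bear on these 2 was not tested.

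Clock genes included a pair that pointed in opposite directions. CRY1, a repressor of the clock, measured 29.7 to 30.6 FPKM in the ANKRD35 controls and 6.05 to 6.91 FPKM in the MITD1 controls, and BHLHE41, another repressor, 1.38 to 2.19 against 27.1 to 29.2 FPKM. Among growth factors and their binding proteins, AREG, a ligand of the EGF receptor, measured 42.6 to 43.8 against 1.32 to 2.15 FPKM, and IGFBP3, a binding protein of insulin-like growth factors, 17.2 to 18.0 against 270 to 271 FPKM.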
